A study of Macaca mulatta with 4 samples.

Results

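The FGF signalling genes of rhesus monkey stem cells and neural progenitors were described here across 3 libraries. Members were the genes whose symbol in the deposited table is an FGF ligand, 1 of the receptors FGFR1 to FGFR4, FGFRL1, a Sprouty or SPRED inhibitor, DUSP4, DUSP5 or DUSP6, or ETV1, ETV4 or ETV5. The rule found 39 genes of 23697 in the table, and FGF4 was not analysed here. The libraries were diploid embryonic stem cells (ESCs, pluripotent cells grown from early embryos), haploid ESCs, with 1 copy of each chromosome, and diploid neural progenitor cells (NPCs, dividing precursors of neurons and glia). The cells are from Macaca mulatta, labelled as embryo tissue and in vitro differentiation, and each group held 1 library. The labels give embryonic day 3.5 to both diploid samples and day 2.5 to the haploid one, so ploidy and day cannot be told apart. The series has 4 samples, of which haploid NPCs were not analysed here. The labels do not name the cell lines, the number of lines, the culture medium or its growth factors.

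Fibroblast growth factors are signalling proteins that bind receptor tyrosine kinases at the cell surface with heparan sulphate as a partner. A bound receptor acts through adaptor proteins on RAS and the kinase ERK, and ERK induces a set of genes that includes the ETS factors of the PEA3 group and inhibitors of the same pathway, the Sprouty, SPRED and dual specificity phosphatase proteins. FGF signalling holds primate ESCs in the pluripotent state, takes part in forming mesoderm and endoderm at the primitive streak, and patterns the boundary of midbrain and hindbrain, where FGF8 is the best known ligand. Neural progenitors are commonly grown with FGF2.

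Expression is given as FPKM (fragments scaled to transcript length and to library size), so levels can be set against each other between genes of 1 library. Comparisons between libraries depend on the scaling, since the summed values differ. The diploid ESC library sums to 568734 FPKM, the haploid ESC library to 492324 FPKM and the NPC library to 600215 FPKM. Libraries were compared as deposited, and rescaled values were tried as well. Log2 ratios were taken after adding 1 to each FPKM value, so differences of low genes are understated, and a gene was counted as higher or lower when its ratio reached 4-fold, which is 2 on the log2 scale. Counts cover genes averaging 1 FPKM or more over the 3 libraries, 14474 genes in all and 27 of the 39 members. A gene near 0 in the other libraries can pass this filter through the library in which it is high. No difference could be checked against replicates, since each group held 1 library, and no test was run. In these bulk samples, fewer cells of a type and less RNA per cell cannot be told apart. Read totals are not known. Sequencing depth relative to diploid ESCs was estimated from the most frequent ratio of low values, at 95.3% for haploid ESCs and 78.7% for NPCs. Expression differences of low genes can enter this estimate. Where 3 values follow each other, they are those of diploid ESCs, haploid ESCs and NPCs, in this order. The label checks went with the labels: the pluripotency factor POU5F1 stood at 1859, 1332 and 1.5 FPKM, the neural factor SOX1 at 0.09, 0.14 and 18.2 FPKM, and the radial glia gene FABP7 at 0.86, 6 and 403 FPKM.

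The largest contrast lay in the ligands. Summed over the 17 secreted FGFs, the level was 268 FPKM in the diploid ESC library, 64.2 FPKM in the haploid ESC library and 16.3 FPKM in the NPC library. FGF17 alone, at 207, 17.3 and 0.68 FPKM, held most of the diploid ESC sum and of its difference from the haploid ESC sum. The receptors did not follow this order, with 86.5, 143 and 119 FPKM summed over FGFR1 to FGFR4. The PEA3 factors, which ERK induces, summed to 170, 196 and 156 FPKM, and the 4 Sprouty genes to 111, 108 and 125 FPKM. Between NPCs and diploid ESCs, 8 of the 27 members were at least 4-fold lower in NPCs, where 6.11% of all genes were, and 0 were at least 4-fold higher, where 8.28% of all genes were. The members' median log2 ratio was -0.93, beside 0.01 over all genes. FGF17, FGF8, FGF1, FGF16, FGFR4, FGFRL1, SPRED1 and DUSP5 made up the 8. FGFR4 lay just past the threshold, at -2.06, and SPRED3 just short of it in the other direction, at 1.93. At 2-fold, 13 members were lower, where 19.6% of all genes were, and 3 were higher, FGF9, SPRED3 and SPRY1, where 22.7% of all genes were. At 8-fold the lower members were FGF17 and FGF8, beside 2.15% of all genes, and 0 were higher, beside 2.11%. FGF9 and FGF16 reached 1 FPKM in 1 library each, so they were counted through the library in which they were high.

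**Figure D1:**
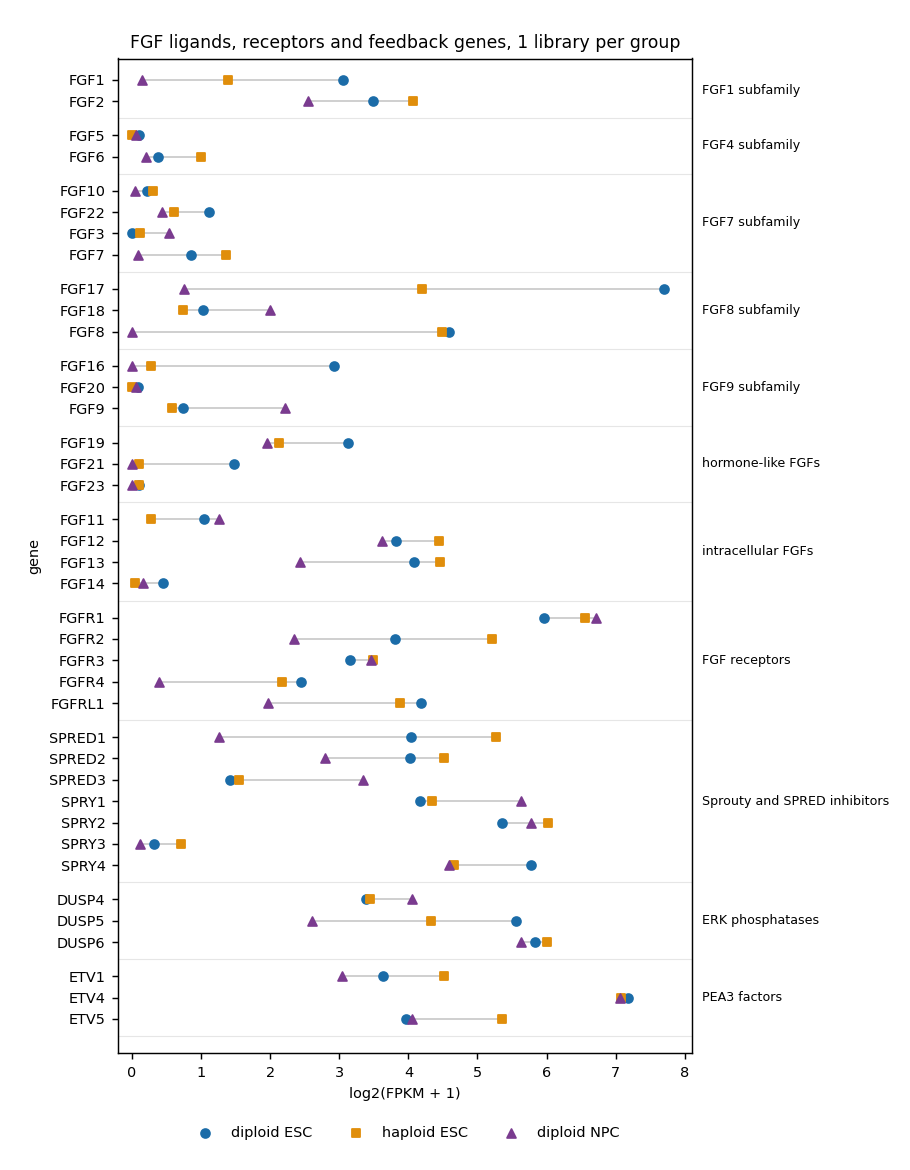
Each row is 1 of the 39 members, grouped by subfamily or role, and the x axis is log2(FPKM + 1). Circles are the diploid ESC, squares the haploid ESC and triangles the diploid NPC library, 1 library each, and the grey line spans the 3 values. FGF17 has the widest span, from 0.68 to 207 FPKM, while ETV4 lies between 133 and 144 FPKM.

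Between haploid and diploid ESCs, 2 of the 27 members, FGF17 and FGF16, were lower by 4-fold or more in haploid ESCs, where 2.53% of all genes were, and 0 were at least 4-fold higher, where 1.04% of all genes were. The members' median was 0.14, beside 0.02 over all genes, and 18 of the 27 members lay within 2-fold, beside 83.6% of all genes. At 8-fold FGF17 was the 1 lower member, beside 0.76% of all genes, and 0 were higher, beside 0.283%. Over all genes, 151 were higher and 366 lower at 4-fold, and 319 and 475 after rescaling every library to the same sum of 1000000 FPKM, which moved the median of all genes to 0.19. Small ratios in this comparison depended on the scaling: those of FGF8 and ETV4 changed sign under that rescaling and that of DUSP4 under trimmed mean scaling. Both comparisons use the same diploid ESC library, so their ratios are given side by side and are not independent. With haploid ESCs as the reference, 5 members were at least 4-fold lower in NPCs, where 7.9% of all genes were: FGF17, FGF8, FGF13, FGFR2 and SPRED1. In that comparison 0 members were at least 4-fold higher, beside 11.6% of all genes.

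**Figure D2:**
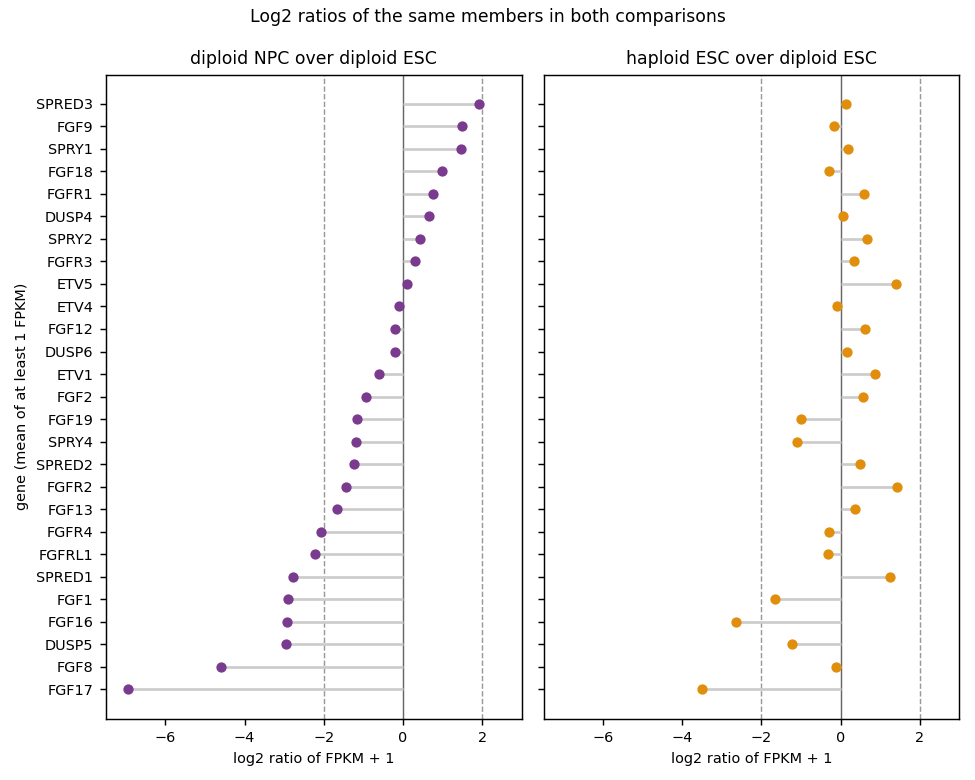
Points are log2 ratios of FPKM + 1 for the 27 members averaging 1 FPKM or more, for diploid NPCs (left) and haploid ESCs (right), both over diploid ESCs and in the same gene order. Dashed lines mark 4-fold. In NPCs the ratios run from -6.95 for FGF17 to 1.93 for SPRED3, and in haploid ESCs from -3.51 for FGF17 to 1.41 for FGFR2.

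The FGF8 subfamily (FGF8, FGF17 and FGF18) has ligands that act in the primitive streak and at the boundary of midbrain and hindbrain. It made up most of the summed secreted FGF level of diploid ESCs, a sum without FGF4. FGF17 (NCBI gene 706659) stood at 207 FPKM in the diploid ESC library, 17.3 FPKM in the haploid ESC library and 0.68 FPKM in the NPC library. It was 12.0-fold lower by FPKM in haploid than in diploid ESCs, with a log2 ratio of -3.51, and its ratio in NPCs was -6.95. In diploid ESCs its level was above that of 97.1% of the 14474 genes. FGF8 (NCBI gene 722394) was alike in both ESC libraries, at 23.1 and 21.4 FPKM, and was listed at 0 in NPCs. FGF18 was instead highest in NPCs, with 1.03 FPKM in the diploid ESC library, 0.67 FPKM in the haploid ESC library and 3 FPKM in the NPC library. FGF17 thus exceeded FGF8 in diploid ESCs, while in haploid ESCs their levels were close.

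FGF17 made up 77.2% of the summed secreted FGF level in diploid and 26.9% in haploid ESCs and 4.17% in NPCs. These shares do not depend on scaling between libraries, and FGF4 is in none of the sums. In haploid ESCs FGF8 had the largest share, 33.3%, beside 24.4% for FGF2. In NPCs the remaining ligand RNA was spread over FGF2 at 29.8%, FGF9 at 22.4%, FGF18 at 18.4% and FGF19 at 17.7%. At 1 FPKM or more stood 9, 6 and 4 of the 17 secreted FGFs, beside 13721, 13147 and 14022 of the 23697 genes in the table.

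**Figure D3:**
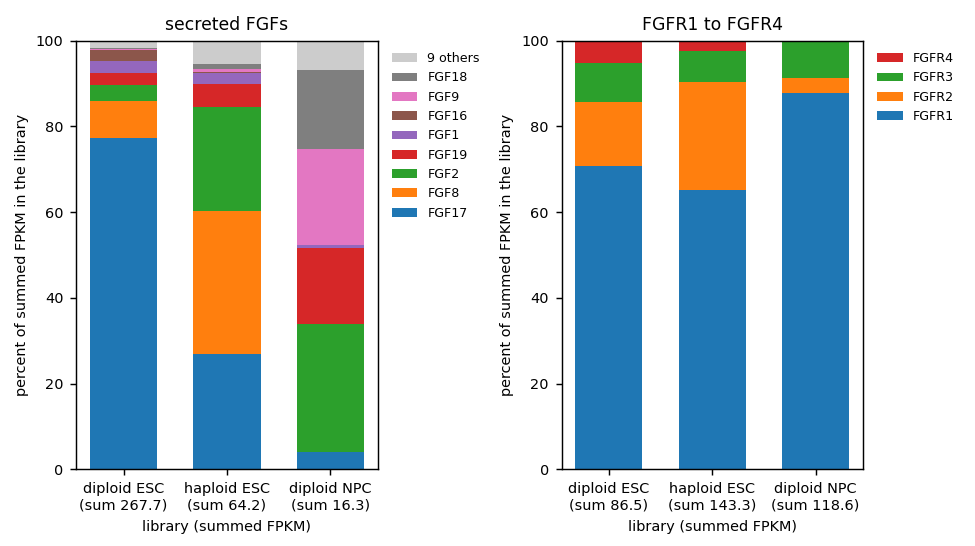
Bars show the percent of summed FPKM that each gene takes in each library, for the 17 secreted FGFs (left) and FGFR1 to FGFR4 (right), with the summed FPKM under each bar and 1 library per bar. FGF17 takes 77.2% of the ligand sum in diploid ESCs and 4.17% in NPCs, and FGFR1 takes the largest share of the receptor sum in every library, from 65.2% to 87.8%.

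Genes listed as mesendoderm markers are given beside FGF17. Their summed level over the 10 of 12 listed genes found in the table was 941 FPKM in the diploid ESC library, 85.2 FPKM in the haploid ESC library and 13.8 FPKM in the NPC library, and 4 of the 10 were listed at 0 in NPCs. Of 7 averaging 1 FPKM or more, 6 were lower by 4-fold or more in NPCs, beside 6.11% of all genes, and 4 in haploid ESCs, beside 2.53%. Among the 7, SOX17 and FOXA2 were counted through the diploid ESC library, in which they were high. CER1, a secreted antagonist of Nodal and BMP, stood at 663, 37.6 and 0.26 FPKM, and the endoderm factor SOX17 at 60.4 and 0.1 FPKM and listed at 0. The streak organizer factor GSC was at 68.6, 4.8 and 0.11 FPKM and the endoderm factor FOXA2 at 36.7, 0.3 and 1.12 FPKM. NODAL, a ligand of primitive streak formation, was at 59.5 and 15.0 FPKM and listed at 0. EOMES and MIXL1, given after their values were seen, differed less between the ESC libraries. EOMES was at 27.4 and 15.6 FPKM and listed at 0, and MIXL1 was at 24.3, 11.6 and 11.4 FPKM. CER1 thus held most of the diploid ESC sum, and MIXL1 most of the NPC sum. The listed genes TBXT, TBX6 and MESP1, given after their values were seen, did not reach 1 FPKM in any library. TBXT was at 0.85 and 0.03 FPKM and listed at 0, TBX6 at 0.82, 0.13 and 0.46 FPKM and MESP1 at 0.15, 0.05 and 0.46 FPKM. FGF8 did not share the difference between the ESC libraries. The part of mesendoderm cells in the level of FGF17 was not tested.

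FGF1 and FGF2 are ligands without a classical signal peptide, and FGF2 is the usual supplement of primate ESC medium. FGF2 (NCBI gene 574136) stood at 10.2 FPKM in the diploid ESC library, 15.7 FPKM in the haploid ESC library and 4.86 FPKM in the NPC library, so it was 2.10-fold lower by FPKM in NPCs than in diploid ESCs. FGF1 was at 7.27, 1.62 and 0.1 FPKM, with log2 ratios of -2.91 in NPCs and -1.66 in haploid ESCs. With a pseudocount of 0.1 in place of 1, FGF1 also passed 4-fold in haploid ESCs.

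Of the FGF9 subfamily, ligands that mostly bind the mesenchymal splice forms of FGF receptors, FGF16 and FGF9 marked different libraries. FGF16 stood at 6.58 and 0.21 FPKM in the ESC libraries and was listed at 0 in NPCs. FGF9, a mitogen first isolated from glial cells, was at 0.66, 0.49 and 3.66 FPKM, its ratio in NPCs being 1.49. FGF20 did not exceed 0.06 FPKM in any library.

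The hormone-like FGFs act at a distance through the co-receptors KL (Klotho) and KLB. FGF19, which in the adult gut signals bile acid status to the liver, stood at 7.71 FPKM in the diploid ESC library, 3.35 FPKM in the haploid ESC library and 2.89 FPKM in the NPC library, with log2 ratios against diploid ESCs of -1.0 in haploid ESCs and -1.16 in NPCs. FGF21, a metabolic hormone of the liver, was at 1.77 and 0.07 FPKM in the ESC libraries and listed at 0 in NPCs. FGF23, the phosphate hormone of bone, did not exceed 0.07 FPKM. KL and KLB, chosen after their values were seen, were also low: KL stood at 2.39 FPKM in diploid ESCs and was listed at 0 in the other libraries, and KLB stood at 0.25, 0.15 and 1.78 FPKM.

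The measured ligands of the FGF4 and FGF7 subfamilies, without FGF4 itself, did not exceed 1.56 FPKM in any library. FGF5, a marker of the primed epiblast in the mouse, was listed at 0 in haploid ESCs and stood at 0.07 and 0.04 FPKM in diploid ESCs and NPCs. FGF6 reached 0.99 FPKM in haploid ESCs. In the FGF7 subfamily, whose members bind the epithelial form of FGFR2, FGF7 had the highest value, 1.56 FPKM in haploid ESCs, beside 0.8 and 0.06 FPKM in diploid ESCs and NPCs. FGF22 was at 1.16, 0.52 and 0.35 FPKM, and FGF10 did not exceed 0.23 FPKM. FGF3 was listed at 0 in diploid ESCs and reached 0.45 FPKM in NPCs. None of these 6 genes had a mean of 1 FPKM, and their ratios were not counted.

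The intracellular FGFs, FGF11 to FGF14, are not secreted and bind voltage-gated sodium channels in neurons. FGF12 stood at 13.1 FPKM in the diploid ESC library, 20.7 FPKM in the haploid ESC library and 11.3 FPKM in the NPC library. FGF13, which also binds microtubules in developing neurons, was at 16.0 and 21.0 FPKM in the ESC libraries and 4.4 FPKM in NPCs, with log2 ratios of -1.65 against diploid ESCs and -2.02 against haploid ESCs. FGF11 was at 1.06, 0.21 and 1.38 FPKM and FGF14 at 0.37, 0.03 and 0.12 FPKM. Neither of the 2 counted here, FGF12 and FGF13, was at least 4-fold higher in NPCs, where 8.28% of all genes were. For 2 genes such a count says little. Of the 7 neuron markers averaging 1 FPKM or more, 6 were at least 4-fold higher there. The neuronal tubulin TUBB3 stood at 25.9, 20.8 and 245 FPKM, the growth cone protein GAP43 at 17.0, 29.3 and 292 FPKM, the neurofilament NEFM at 6.06, 17.1 and 133 FPKM and the RNA binding protein ELAVL3 at 0.27, 0.05 and 28.5 FPKM. The summed neuron markers stood at 60.3, 72.0 and 743 FPKM, with none listed at 0.

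Among the receptors, FGFR1 was the most abundant in every library. FGFR1 (NCBI gene 700126) stood at 61.2 FPKM in the diploid ESC library, 93.5 FPKM in the haploid ESC library and 104 FPKM in the NPC library, and made up 70.8%, 65.2% and 87.8% of the summed level of FGFR1 to FGFR4. With FGFRL1 in the sum these shares were 59.0%, 59.5% and 85.7%. FGFR2 was at 12.9, 36.1 and 4.1 FPKM, highest in haploid ESCs, where it was 2.79-fold above diploid ESCs by FPKM, and lowest in NPCs. The ratio of FGFR1 to FGFR2 was therefore 4.73 in diploid and 2.59 in haploid ESCs and 25.4 in NPCs. FGFR3, which in bone growth restrains cartilage cells, was alike in all libraries, at 7.9, 10.2 and 10.0 FPKM. Gene level values do not separate the splice forms that set which ligands FGFR1, FGFR2 and FGFR3 bind, and the table lists 12, 11 and 11 transcripts for these genes.

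FGFR4 and FGFRL1 were lower in NPCs than in both ESC libraries. FGFR4, the main receptor of FGF19 in liver, stood at 4.46 FPKM in the diploid ESC library, 3.49 FPKM in the haploid ESC library and 0.31 FPKM in the NPC library. FGFRL1, which binds FGFs but lacks the kinase domain, was at 17.2, 13.8 and 2.92 FPKM, 5.90-fold lower by FPKM in NPCs than in diploid ESCs, with a log2 ratio of -2.22. Neither differed by 2-fold between the ESC libraries.

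Among partners of FGF at the cell surface, proteoglycans, carriers and adhesion molecules, most did not pass 4-fold. Of 16 co-receptor and matrix genes averaging 1 FPKM or more, among 20 listed, 4 were lower by 4-fold or more in NPCs against diploid ESCs, beside 6.11% of all genes, and 2 higher, beside 8.28%. Of the same 16, 0 passed 4-fold between the ESC libraries, beside 1.04% of all genes higher and 2.53% lower in haploid ESCs. The median log2 ratio in NPCs was 0.36, beside 0.01 over all genes. GPC4, a heparan sulphate proteoglycan of the glypican family, stood at 164 FPKM in the diploid ESC library, 146 FPKM in the haploid ESC library and 13.6 FPKM in the NPC library, and the syndecan SDC4 at 68.4, 53.2 and 2.98 FPKM. ANOS1, a matrix protein that modulates FGFR1 signalling, was at 39.2, 82.0 and 0.5 FPKM. FGFBP3, a carrier that releases FGFs from the matrix, had the opposite order, at 12.5 and 9.07 FPKM in the ESC libraries and 86.4 FPKM in NPCs. Among 11 heparan sulphate enzymes averaging 1 FPKM or more, 1 was at least 4-fold higher in NPCs, beside 8.28% of all genes, and 0 were lower, beside 6.11%. The higher gene, the heparanase gene HPSE, stood at 2.47, 1.43 and 17.6 FPKM. In haploid ESCs 1 was higher, beside 1.04% of all genes, the sulphatase SULF1, which trims heparan sulphate, at 6.52 FPKM beside 0.54 and 0.67 FPKM in diploid ESCs and NPCs. The enzyme medians were -0.52 in NPCs and 0.33 in haploid ESCs.

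Between receptor and ERK stand adaptors, RAS proteins and kinases. All 24 listed genes averaged 1 FPKM or more, and 1, the adaptor SHC1, was at least 4-fold lower in NPCs, beside 6.11% of all genes, at 125 FPKM in the diploid ESC library, 109 FPKM in the haploid ESC library and 21.1 FPKM in the NPC library. None was higher at 4-fold, beside 8.28% of all genes. At 2-fold 5 were lower, beside 19.6% of all genes, and 2 higher, beside 22.7%. Among these, given after their values were seen, the ERK kinase MAP2K1 stood at 48.3, 42.3 and 12.0 FPKM and HRAS at 39.3, 33.2 and 116 FPKM. Between haploid and diploid ESCs 0 passed 4-fold, beside 1.04% of all genes higher and 2.53% lower. At 2-fold 3 were higher, beside 7.19% of all genes, and 1 was lower, beside 9.18%. The list medians were -0.31 in NPCs and 0.34 in haploid ESCs.

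The Sprouty proteins, which block signalling between receptor and RAS, kept a similar summed level but a different make-up. SPRY1 (NCBI gene 708752) stood at 16.9 FPKM in the diploid ESC library, 19.4 FPKM in the haploid ESC library and 48.3 FPKM in the NPC library, 2.85-fold higher by FPKM in NPCs than in diploid ESCs. SPRY4 had the reverse order, at 53.8, 24.3 and 23.1 FPKM, and was the most abundant Sprouty gene in diploid ESCs alone of the 3 libraries. The ratio of SPRY4 to SPRY1 was 3.18 in diploid and 1.26 in haploid ESCs and 0.478 in NPCs. SPRY2 was at 39.7, 64.0 and 53.6 FPKM, within 2-fold in both comparisons, and SPRY3 did not exceed 0.64 FPKM.

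The SPRED proteins bring the RAS inhibitor neurofibromin to the membrane, and their genes exchanged places between ESCs and NPCs. SPRED1 stood at 15.4 FPKM in the diploid ESC library, 37.6 FPKM in the haploid ESC library and 1.38 FPKM in the NPC library, 11.2-fold lower by FPKM in NPCs than in diploid ESCs, with log2 ratios of -2.78 against diploid and -4.02 against haploid ESCs. SPRED2 was at 15.3, 21.9 and 5.96 FPKM. SPRED3 was low in both ESC libraries, at 1.66 and 1.93 FPKM, and at 9.12 FPKM in NPCs, 5.49-fold higher by FPKM than in diploid ESCs. SPRED3 made up 5.13% of the summed SPRED level in diploid and 3.14% in haploid ESCs and 55.4% in NPCs, and SPRED1 47.6%, 61.2% and 8.38%. Neurofibromin itself, the NF1 gene, chosen after its values were seen, was at 4.44, 9.91 and 4.5 FPKM.

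Of the ERK phosphatases, DUSP6, the cytoplasmic one that is commonly read as a sign of FGF and ERK activity, stood at 56.2 FPKM in the diploid ESC library, 63.5 FPKM in the haploid ESC library and 48.4 FPKM in the NPC library. DUSP5, a nuclear ERK phosphatase, was at 46.2, 19.1 and 5.1 FPKM, 9.06-fold lower by FPKM in NPCs than in diploid ESCs, with log2 ratios of -2.95 and, in haploid ESCs, -1.23. DUSP4, also nuclear, was at 9.5, 9.87 and 15.6 FPKM. The ratio of DUSP6 to DUSP5 was 1.22 in diploid and 3.32 in haploid ESCs and 9.49 in NPCs. DUSP6 was thus the most abundant of the 3 in every library, while DUSP5 went from second in the ESC libraries to last in NPCs.

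ETV4, a PEA3 factor that FGF signalling induces in many embryonic tissues, was the steadiest abundant member. ETV4 (NCBI gene 709349) stood at 144 FPKM in the diploid ESC library, 135 FPKM in the haploid ESC library and 133 FPKM in the NPC library, above 94.8% or more of the 14474 genes in each library. It made up 84.7%, 68.6% and 85.4% of the summed PEA3 level. ETV5 was at 14.6 and 15.6 FPKM in diploid ESCs and NPCs and at 39.9 FPKM in haploid ESCs, 2.74-fold above diploid ESCs by FPKM. ETV1 was also highest in haploid ESCs, at 21.8 FPKM beside 11.5 and 7.18 FPKM in diploid ESCs and NPCs. FGFR2, SPRED1 and ETV5 were the 3 members at least 2-fold higher in haploid than in diploid ESCs, where 7.19% of all genes were. At the same threshold 6 members were lower, FGF17, FGF16, FGF1, DUSP5, SPRY4 and FGF19, where 9.18% of all genes were. After rescaling to a sum of 1000000 the log2 ratios of FGF19 and SPRY4, -0.90 and -0.92, fell short of 2-fold. That of ETV1 then passed it, at 1.10. Of 9 fibroblast or feeder markers, 3 were at least 4-fold higher in the haploid library, beside 1.04% of all genes, and 5 at least 2-fold higher, beside 7.19%, while the other 4 lay within 2-fold, with summed levels of 471 FPKM in the diploid ESC library, 708 FPKM in the haploid ESC library and 159 FPKM in the NPC library and none listed at 0. ACTA2, an actin of contractile cells, stood at 17.8 and 123 FPKM in diploid and haploid ESCs, the collagen COL3A1 at 13.1 and 61.1 FPKM and the matrix protein POSTN at 1.27 and 9.59 FPKM. POSTN was also higher in NPCs, at 45.1 FPKM. The collagen COL1A1 stood at 235, 206 and 12.7 FPKM, and THY1 and LUM, given after their values were seen, at 138 and 137 FPKM and at 0.98 and 0.26 FPKM in diploid and haploid ESCs. Their part in the levels of FGFR2, SPRED1 and ETV5 was not tested.

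**Figure D4:**
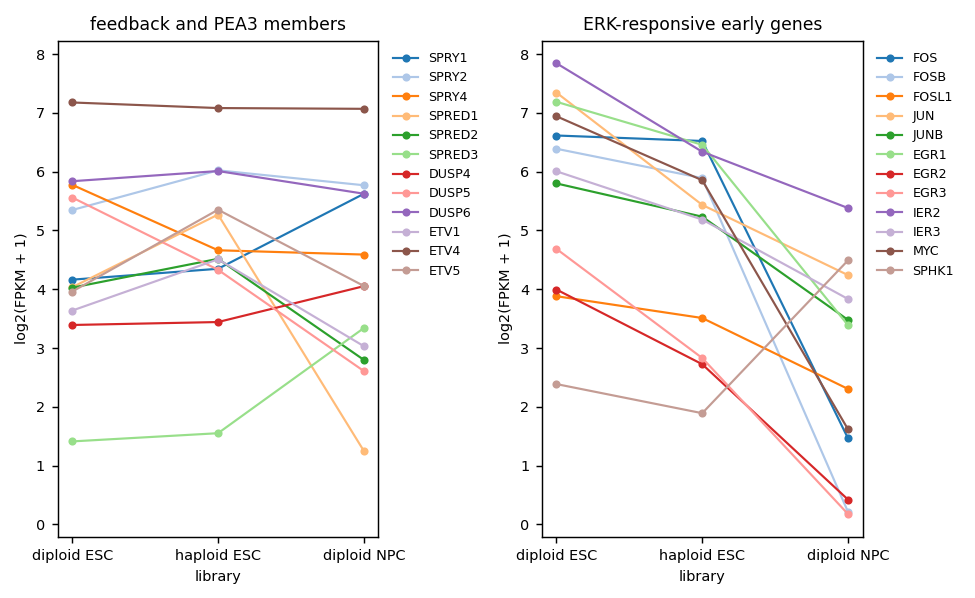
Points are log2(FPKM + 1) in the 3 libraries, 1 library each, and lines join the values of 1 gene, for 12 feedback and PEA3 members (left) and the 12 ERK-responsive early genes (right). ETV4 and DUSP6 are nearly level on the left, with ETV4 at 144, 135 and 133 FPKM, while FOS on the right goes from 97.1 and 91.0 FPKM in the ESC libraries to 1.76 FPKM in NPCs.

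Of 10 further feedback genes, 2 were lower by 4-fold or more in NPCs than in diploid ESCs, beside 6.11% of all genes, 1 was higher, beside 8.28%, and 7 did not pass 4-fold, with a median log2 ratio of -0.62 and summed levels of 408, 392 and 302 FPKM. DUSP2, an inducible nuclear phosphatase, stood at 31.3 FPKM in the diploid ESC library, 2.76 FPKM in the haploid ESC library and 0.44 FPKM in the NPC library. It was the 1 gene of the list past 4-fold between the ESC libraries, where 2.53% of all genes were lower and 1.04% higher. The list median between these libraries was -0.17. DUSP1 was at 35.2, 19.4 and 5.54 FPKM. CNPY1, which in zebrafish promotes FGF receptor signalling at the midbrain-hindbrain boundary, was listed at 0 in haploid ESCs and stood at 0.15 and 71.9 FPKM in diploid ESCs and NPCs.

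Among 12 early genes that respond to ERK and to other stimuli, 10 were at least 4-fold lower in NPCs than in diploid ESCs, where 6.11% of all genes were, 1 was at least 4-fold higher, where 8.28% were, and the median was -3.34, beside 0.01 over all genes. Between the ESC libraries 0 passed 4-fold, beside 1.04% of all genes higher and 2.53% lower, and the median was -0.78. FOSB stood at 82.9, 58.4 and 0.16 FPKM, FOS at 97.1, 91.0 and 1.76 FPKM, and EGR3 at 24.8, 6.11 and 0.13 FPKM. MYC, a growth regulator that is high in pluripotent cells, was at 122, 56.9 and 2.07 FPKM. The higher gene, named after its values were seen, was the sphingosine kinase SPHK1, at 4.23, 2.71 and 21.5 FPKM. The 12 genes summed to 1013, 512 and 121 FPKM.

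Some genes of the midbrain-hindbrain boundary were high in the NPC library, in which FGF8 was listed at 0, and others were low. Of 6 averaging 1 FPKM or more, among 10 listed, 4 were at least 4-fold higher in NPCs than in diploid ESCs, beside 8.28% of all genes, and 1 was lower, beside 6.11%. The lower gene, the forebrain and midbrain factor OTX2, stood at 112, 44.7 and 6.14 FPKM. EN1, a factor that FGF8 maintains at this boundary, stood at 0.24 FPKM in the diploid ESC library, 0.46 FPKM in the haploid ESC library and 41.7 FPKM in the NPC library, EN2 at 0.02, 0.11 and 48.3 FPKM and GBX2 at 1.26, 1.83 and 109 FPKM. The paired box factor PAX8 had values of 0.05, 0.1 and 63.0 FPKM. EN1, EN2 and PAX8 did not reach 1 FPKM in either ESC library, so they were counted through the library in which they were high. The other 5 genes, of which all but SP8 are given after their values were seen, were at 2.39 FPKM or less in NPCs: PAX2 stood at 0.04 FPKM there, PAX5 at 0.2 FPKM, LMX1B at 0.87 FPKM, WNT1 at 2.39 FPKM and SP8 at 0.27 FPKM. SP8 was the 1 gene of the list at least 4-fold higher in haploid than in diploid ESCs, at 8.22 and 0.38 FPKM, beside 1.04% of all genes. It was likewise counted through the haploid ESC library, in which it was high. The FGF8 subfamily as a whole summed to 231, 39.4 and 3.68 FPKM.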

How the data were processed

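RNA was isolated with Trizol and read on a BGISEQ-500, per the labels' protocols. Reads were mapped to the UCSC assembly Rhesus8 with STAR 2.4, allowing 2 mismatches, and counted per gene with featureCounts, and genes with more than 10 summed reads were kept, per the labels' protocols. The authors deposited FPKM values to 2 decimals; the step from counts to FPKM is not described. Columns were matched to samples by description, and 1 further column, which fitted no sample label, stayed out of every step. Without a stated strand, reads of overlapping or antisense genes cannot be separated.

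Log2 ratios used a pseudocount of 1 FPKM. Members were taken by symbol. The other genes came from 11 lists of 134 genes, of which 132 were found; the text names genes from these lists among those past 4-fold with the 4 largest ratios of each list and comparison, with exceptions given as such. Members and lists were chosen with earlier results of these data known. Other settings tried were no filter or a minimum mean of 5 FPKM, a pseudocount of 0.1, libraries rescaled to a sum of 1000000 or by a trimmed mean, thresholds of 2-fold and 8-fold, the haploid ESC library as reference, and FGFRL1 added to the receptor sum. Relative depth was the most frequent ratio of values from 0.15 to 0.6 FPKM. Markers of pluripotency, neural progenitors, neurons, mesendoderm and fibroblasts were read beside the members. Of 8 pluripotency markers 7 were at least 4-fold lower in NPCs than in diploid ESCs, NANOG, LIN28A and DPPA4 among them, beside 6.11% of all genes. Of 8 neural progenitor markers with a mean of at least 1 FPKM 4 were higher, ZIC1 and VIM among them, beside 8.28%. The markers that did not pass 4-fold are given after their values were seen. Their log2 ratios were -0.46 for SOX2, 1.89 for PAX6, 1.70 for MSI1, 0.14 for NES and 0.29 for SOX3. Python 3.11.15, numpy 2.4.6, pandas 2.3.3 and matplotlib 3.10.9 were used, and the ratio and scaling steps were tested on simulated data.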

Additional observations from a re-analysis of the deposited data

How the results depend on the processing

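Values rest on 1 library per group, depth is estimated relative to the diploid ESC library alone, and values near 0 rest on few reads. No paired analysis was possible because each group held 1 library. The members counted as lower in NPCs than in diploid ESCs were 8 as reported. With a minimum mean of 5 FPKM they were 5, and 649 of all genes were lower. They were 5 against haploid ESCs, beside 7.9% of all genes, 13 at 2-fold, beside 19.6%, and 2 at 8-fold, beside 2.15%. The members higher in NPCs, 0 as reported, were 2 with a pseudocount of 0.1 (FGF9 and SPRED3), where 1817 of all genes were higher. They were 1 after rescaling to a sum of 1000000 (SPRED3), where 1455 of all genes were, and 3 at 2-fold, beside 22.7%. Between haploid and diploid ESCs the 2 lower members became 1 with a minimum mean of 5 FPKM, where 218 of all genes were lower. They became 6 at 2-fold, beside 9.18% of all genes, and 1 at 8-fold, beside 0.76%. The 0 higher members became 3 at 2-fold, beside 7.19% of all genes. The pooled co-receptor, enzyme, cascade and feedback lists held 61 genes averaging 1 FPKM or more. Of these, 4 were higher and 7 lower in NPCs, beside 8.28% and 6.11% of all genes. At 2-fold 10 were higher and 13 lower, beside 22.7% and 19.6%, and at 8-fold 1 and 4, beside 2.11% and 2.15%. The same lists had 1 gene higher and 1 lower in haploid ESCs, beside 1.04% and 2.53% of all genes. The higher count was 0 with a minimum mean of 5 FPKM and 2 after rescaling. At 2-fold it was 9, beside 7.19% of all genes, and at 8-fold 0, beside 0.283%. The lower count was 2 after rescaling and 3 at 2-fold, beside 9.18% of all genes. Over all genes, 1198 higher and 885 lower in NPCs became 1817 and 1526 with a pseudocount of 0.1, 3287 and 2842 at 2-fold and 306 and 311 at 8-fold. Over all genes in haploid ESCs, 151 higher and 366 lower became 330 and 728 with a pseudocount of 0.1, 80 and 218 with a minimum mean of 5 FPKM, 1041 and 1329 at 2-fold and 41 and 110 at 8-fold, and the higher count was 319 after rescaling. The share of FGFR1 among the receptors, 70.8%, 65.2% and 87.8% in diploid ESCs, haploid ESCs and NPCs, was 59.0%, 59.5% and 85.7% with FGFRL1 in the sum. Fewer genes tested, another fixed threshold or a larger sum account for the changes at those settings by construction; for the others the cause was not tested. No member past 4-fold changed sign under the pseudocount and scaling alternatives.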

Other observations

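Some members are neighbours in the gene table of the assembly T2T-MMU8v2.0, which is not the build of the files, so that gene order alone was taken from it. SPRY4 and FGF1 have 1 protein-coding gene between them, and both were highest in diploid ESCs, at 53.8 and 7.27 FPKM, and lowest in NPCs, at 23.1 and 0.1 FPKM. FGF2 and SPRY1 have 2 protein-coding genes between them and had different orders: FGF2 was lowest in NPCs, at 4.86 FPKM, and SPRY1 highest there, at 48.3 FPKM. FGF23 and FGF6 are adjacent, and neither reached 1 FPKM in any library. FGF3 and FGF19 lie on either side of FGF4, and FGF19 at 7.71 FPKM in diploid ESCs stood beside FGF3 listed at 0.

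The table has 4 rows outside the members whose orthology annotation includes the general FGF term or that of FGFR3. LOC106996034 carries the FGFR3 term alone and stood at 0.43 and 0.19 FPKM in diploid and haploid ESCs and was listed at 0 in NPCs. LOC706418 carries the FGF term alone and stood at 0.02, 0.18 and 0.44 FPKM, in the order diploid ESCs, haploid ESCs and NPCs. LOC715461, at 7.54, 0.56 and 2.52 FPKM, and MB21D2, at 4.45, 6.55 and 2.28 FPKM, carry the FGF term together with terms of other proteins. None is a member, and no sum given here holds them.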
